A study of Mus musculus with 5 samples.

Results

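The genes of MHC class I antigen presentation and peptide loading were followed through single-cell RNA libraries of sorted mouse lung group 2 innate lymphoid cells (ILC2s). They were 10 genes, chosen by symbol and not by their values, of 27726 genes common to 5 libraries: the heavy chains *H2-K1* and *H2-D1*, the light chain *B2m*, the transporter and loading genes *Tap1*, *Tap2* and *Tapbp*, the immunoproteasome subunits *Psmb8*, *Psmb9* and *Psmb10*, and the regulator *Nlrc5*. All 10 were found in every library. The mice were wild-type female C57BL/6, 4 to 8 weeks old, with 5 mice in each group. Naïve-ILC2s came from mice without a tumour. Tumour-associated (ta-) ILC2s came from the lungs of mice that carried subcutaneous TC1 tumours, a lung epithelial line transformed with E6/E7 and ras, for 2 or 3 weeks. Naïve- and ta-non-activated ILC2s were sequenced freshly isolated, and ta-activated ILC2s after 7 days in culture with IL-33 and TSLP, to which the methods add IL-2, at 10 ng/ml each. Activation is therefore the cytokines and the culture together, and the 2 cannot be told apart. There was 1 naïve library and 2 libraries in each tumour-associated group, of which the first is from week 2 and the second from week 3, so week and replicate are the same thing. Where 2 values are given for a group, they stand in that order.

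Class I molecules carry short peptides of the cell's own proteins to its surface, where CD8+ T cells and NK cells read them. The proteasome cuts the peptides, the TAP transporter moves them into the endoplasmic reticulum, and tapasin holds the empty heavy chain and β2-microglobulin until a peptide binds. Interferons raise most of these genes together, through IRF factors and the class I transactivator NLRC5, and exchange the catalytic subunits of the standard proteasome for those of the immunoproteasome.

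Most of the genes lie together in the MHC on chromosome 17. On GRCm38 (GENCODE M21), *Tapbp* is at chr17:33915899-33929292, *H2-K1* at chr17:33996017-34000347, *Psmb9* at chr17:34181987-34187764, *Tap1* at chr17:34187553-34197225, *Psmb8* at chr17:34197721-34201454, *Tap2* at chr17:34203527-34216321 and *H2-D1* at chr17:35262730-35267499. *Psmb10* (chr8:105935735-105938444) and *Nlrc5* (chr8:94434356-94527272) are on chromosome 8, and *B2m* (chr2:122147686-122153083) is on chromosome 2. *Psmb9* and *Tap1* are annotated head to head on opposite strands, and their ends overlap.

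The bases before the gene starts are shown for 5 genes to set the response of each beside the interferon motifs of its promoter. They are the 250 bases before the annotated start, from RefSeq on GRCm38.p6, which held 8 of the 10 genes. The windows of *H2-D1*, *Psmb8*, *Psmb9* and *Tapbp* lie wholly inside the GENCODE spans given above, where the 2 annotations place the start differently. *H2-K1* (chr17:34000348-34000597, minus strand) and *H2-D1* (chr17:35262844-35263093, plus strand) are the heavy chains, *B2m* is the light chain (chr2:122147437-122147686, plus strand), *Tap1* (chr17:34187306-34187555, plus strand) is a subunit of the transporter and *Psmb8* (chr17:34197945-34198194, plus strand) is an immunoproteasome subunit. Capitals mark matches, on either strand, to the interferon-stimulated response element (GAANNGAAA, or a longer form with 1 more A before the gap), the interferon-γ-activated site (TTCNNNGAA) and the NF-κB site (GGGNNTTCC).
*H2-K1*: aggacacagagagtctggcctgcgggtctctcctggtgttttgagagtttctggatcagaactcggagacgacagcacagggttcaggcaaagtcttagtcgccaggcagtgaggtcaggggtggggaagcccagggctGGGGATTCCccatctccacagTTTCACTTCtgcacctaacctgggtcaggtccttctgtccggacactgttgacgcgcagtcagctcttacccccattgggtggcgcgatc
*H2-D1*: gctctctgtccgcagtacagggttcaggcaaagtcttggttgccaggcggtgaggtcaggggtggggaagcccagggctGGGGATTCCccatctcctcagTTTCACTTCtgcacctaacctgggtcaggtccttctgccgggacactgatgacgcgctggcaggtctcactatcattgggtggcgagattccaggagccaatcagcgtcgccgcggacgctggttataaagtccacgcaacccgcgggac
*B2m*: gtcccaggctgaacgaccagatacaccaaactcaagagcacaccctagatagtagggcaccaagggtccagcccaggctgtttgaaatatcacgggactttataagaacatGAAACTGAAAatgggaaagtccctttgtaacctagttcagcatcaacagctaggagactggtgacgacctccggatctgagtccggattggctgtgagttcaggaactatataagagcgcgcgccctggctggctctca
*Tap1*: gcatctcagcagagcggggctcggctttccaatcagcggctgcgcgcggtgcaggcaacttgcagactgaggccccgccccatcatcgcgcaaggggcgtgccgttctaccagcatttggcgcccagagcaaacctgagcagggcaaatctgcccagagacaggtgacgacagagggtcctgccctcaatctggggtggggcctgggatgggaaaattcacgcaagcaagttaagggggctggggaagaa
*Psmb8*: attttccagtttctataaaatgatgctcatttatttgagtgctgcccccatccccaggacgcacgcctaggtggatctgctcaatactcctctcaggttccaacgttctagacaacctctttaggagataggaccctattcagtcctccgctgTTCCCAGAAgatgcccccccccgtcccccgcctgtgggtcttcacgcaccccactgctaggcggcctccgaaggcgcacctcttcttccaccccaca

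Both heavy chains carried an NF-κB motif (111 to 103 bases before the start in *H2-K1*, 171 to 163 in *H2-D1*) followed by a response element on the other strand (90 to 82 and 150 to 142 bases before the start). The longest identical stretch of their windows was 47 bases. *B2m* had the longer response element at 139 to 130 bases, and *Psmb8* an interferon-γ-activated site motif at 97 to 89 bases. No match was found in the windows of *Tap1*, *Tapbp*, *Psmb9* and *Psmb10*, where those of *Tap1* and *Psmb9* are the same 225 bases read from either strand. Of 32851 promoter windows of this length, 6.31% held GAANNGAAA, 2.98% its longer form, 7.02% TTCNNNGAA and 4.98% GGGNNTTCC. A match is a description of the letters and not a bound site.

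The libraries held 1838 to 6953 deposited barcodes and 9910201 to 71126524 unique molecular identifiers (UMIs). Barcodes with 200 or more genes and under 5% mitochondrial counts were kept, which gave 1601 to 3822 cells in the tumour-associated libraries and 6389 naïve cells. The week 3 ta-non-activated library stood apart. Its 12 ILC2 markers summed to 1687 CPM (UMI counts scaled to the same total in every library), against 8736 to 11854 CPM in the other 4 libraries, and its 10 T cell markers to 5252 CPM against 248 to 980 CPM. Of the ILC2 sums, *Il13* alone gave 8861 CPM in the week 2 ta-non-activated and 3501 and 4318 CPM in the ta-activated libraries. None of the ILC2 and T cell markers was at 0 in the week 3 ta-non-activated library. There 661 of the 1601 cells fell in a T-cell-like cluster that held 3 cells or fewer of each other library, so the label ILC2 goes against the markers for many cells of this library. Results are therefore given also for ILC2-like clusters only, where this library kept 666 cells. Any 2 libraries shared between 1 and 8 cell barcodes. In sums over a library, fewer cells of a type and less RNA per cell cannot be told apart.

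The heavy chains and β2-microglobulin were higher in both ta-activated libraries than in the other 3. *H2-K1*, the heavy chain of the classical molecule H-2K, had 1791 CPM in the naïve library, 1679.7 and 756 CPM in ta-non-activated ILC2s and 3296 and 3707 CPM in ta-activated ILC2s. The ta-activated values lay close together and above all others, and the week 3 ta-non-activated library was lowest. Its group means were 1218 ± 653 CPM (SD, n = 2) in ta-non-activated and 3501 ± 291 CPM (SD, n = 2) in ta-activated ILC2s, a ratio of 1.96 in week 2 and 4.90 in week 3. *H2-D1*, the heavy chain of H-2D, followed with 1378 CPM in naïve-ILC2s, 1756 and 977 CPM in ta-non-activated and 3323 and 3071 CPM in ta-activated ILC2s. The groups did not overlap, and the ratios were 1.89 and 3.14. *B2m*, whose product every class I heavy chain needs to reach the surface, had 1439.5 CPM in the naïve library, 1243 and 961 CPM without activation and 3225 and 2941 CPM with it. Its ratios, 2.60 and 3.06, differed least between the weeks among these 3 genes. Reads of *H2-K1*, *H2-D1* and the Qa genes are near-identical in places, so the split of counts between them is uncertain.

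Among ILC2-like cells the 2 ta-non-activated libraries were much closer to each other in *H2-K1* and *B2m*, and less so in *H2-D1*. Within ILC2-like clusters, *H2-K1* had 1718 and 1808 CPM without activation and 3795 and 4057 CPM with it, beside 1775 CPM in naïve-ILC2s. *H2-D1* had 1806 and 2439.6 CPM without activation, where week 3 was now the higher, and 3894 and 3382 CPM with it. *B2m* had 1246 and 1275 CPM against 3667 and 3142 CPM. The week 3 ratio of *H2-K1* was thus far smaller among ILC2-like cells than over the whole library, and both groups stayed apart.

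**Figure D1:**
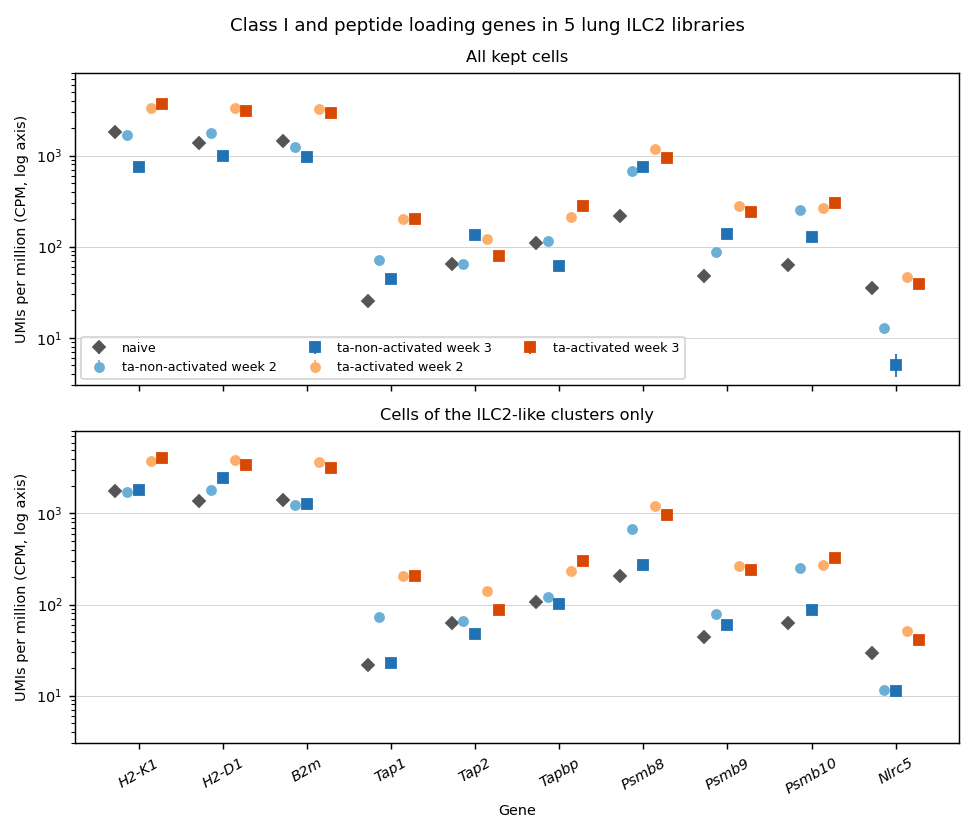
Level of each of the 10 genes in the 5 libraries, in CPM on a log axis, over all kept cells and over cells of ILC2-like clusters only. Both ta-activated libraries lie above both ta-non-activated libraries for 9 of 10 genes over all cells, with *Tap2* the exception, and for 10 of 10 in ILC2-like clusters.

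The transporter subunits parted. *Tap1* had 25.2 CPM in the naïve library, 71.1 and 44.2 CPM in ta-non-activated ILC2s and 202 and 199.5 CPM in ta-activated ILC2s. The naïve library was lowest and the ta-activated libraries were nearly equal, with means of 57.6 ± 19.1 CPM (SD, n = 2) and 200.6 ± 1.52 CPM (SD, n = 2) in the tumour-associated groups. Within ILC2-like clusters *Tap1* had 21.4 CPM in naïve-ILC2s, 72.6 and 22.8 CPM without activation and 207 and 203 CPM with it, so that week 3 without activation lay beside the naïve value. *Tap2*, the other chain of the same heterodimer, had 63.9 CPM in the naïve library, 63.8 and 134 CPM without activation and 122 and 79.6 CPM with it. The groups overlapped, the ratio was 1.91 in week 2 and 0.596 in week 3, and the highest of the 5 values belonged to the week 3 ta-non-activated library. In the T-cell-like cluster of that library *Tap2* had 213 CPM, and in its 2 ILC2-like clusters 50.6 and 44.8 CPM. Over ILC2-like clusters alone *Tap2* had 62.2 CPM in naïve-ILC2s, 65.8 and 47.6 CPM without activation and 139.8 and 86.5 CPM with it, and the groups no longer overlapped. *Tapbp*, which encodes tapasin, had 111 CPM in the naïve library, 117 and 61.3 CPM without activation and 210.1 and 277 CPM with it. Both ta-activated values were above the other 3, at 1.80 and 4.52 times the ta-non-activated value of the week.

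The immunoproteasome subunits were low in naïve-ILC2s and higher in every tumour-associated library. *Psmb8*, the inducible counterpart of *Psmb5*, had 217 CPM in the naïve library, 680.4 and 744 CPM in ta-non-activated and 1166 and 938 CPM in ta-activated ILC2s. Over all cells the 3 groups stood in this order without overlap, though the step from ta-non-activated to ta-activated was small, at 1.71 and 1.26 times. *Psmb9*, the counterpart of *Psmb6*, had 47.5 CPM in naïve, 87.5 and 138 CPM in ta-non-activated and 277 and 238 CPM in ta-activated ILC2s. *Psmb10*, the counterpart of *Psmb7*, had 63.4 CPM in naïve, 250.4 and 129 CPM in ta-non-activated and 265 and 303 CPM in ta-activated ILC2s. Its groups just failed to overlap, with a ratio of 1.06 in week 2, and they did overlap after scaling by trimmed means (TMM), at 280.3 and 123 CPM against 279 and 303 CPM. Within ILC2-like clusters the week 3 ta-non-activated values of *Psmb8*, *Psmb9* and *Psmb10* were 271, 60.0 and 87.5 CPM. These were closer to the naïve values of the same clusters, 205, 43.6 and 62.1 CPM, than the week 2 values of 675, 79.2 and 252 CPM were. With activation these clusters had 1210 and 964 CPM of *Psmb8*, 264 and 240 CPM of *Psmb9* and 269 and 324 CPM of *Psmb10*. The week 3 step of *Psmb8* was thus larger among ILC2-like cells than over the whole library.

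The standard subunits were also lowest in the naïve library, at 76.1 CPM of *Psmb5*, 99.2 CPM of *Psmb6* and 73.9 CPM of *Psmb7*. The low naïve level was thus not particular to the immunoproteasome. Between the tumour-associated groups the standard subunits took a different course, so the exchange was read from the ratio of each pair within a library. *Psmb8* UMIs were 2.86 times those of *Psmb5* in the naïve library, 1.23 and 2.72 times in ta-non-activated and 3.55 and 2.98 times in ta-activated ILC2s. The ratio of *Psmb9* to *Psmb6* was 0.479 in naïve, 0.195 and 0.514 in ta-non-activated and 1.31 and 1.18 in ta-activated ILC2s. That of *Psmb10* to *Psmb7* was 0.858, then 0.573 and 1.16, then 1.64 and 1.59. All 3 ratios were thus higher in both ta-activated libraries than in the other 3, and all were lowest in the week 2 ta-non-activated library. As a share of the pair, *Psmb9* made up 32.4% (95% interval 31.0 to 33.7) of UMIs in the naïve library, 16.3% and 34.0% in ta-non-activated and 56.6% (56.1 to 57.2) and 54.2% (53.6 to 54.8) in ta-activated ILC2s. In week 2 the low ratios went with high standard subunits, since *Psmb5* had 554 CPM there against 76.1 to 329 CPM elsewhere, *Psmb6* 448 CPM against 99.2 to 268 CPM and *Psmb7* 437 CPM against 73.9 to 191 CPM. In ILC2-like clusters both ta-activated ratios were again above the other 3 for each pair, with *Psmb9* to *Psmb6* at 0.431, at 0.171 and 0.439, and at 1.45 and 1.29. *Psmb8* to *Psmb5* stood there at 2.81, at 1.22 and 3.14, and at 4.17 and 3.33. The week 3 difference of this pair was within counting error, with a *Psmb8* share of 75.8% (72.5 to 79.0) without activation and 76.9% with it. No test was run on these ratios, and the intervals cover counting error only.

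**Figure D2:**
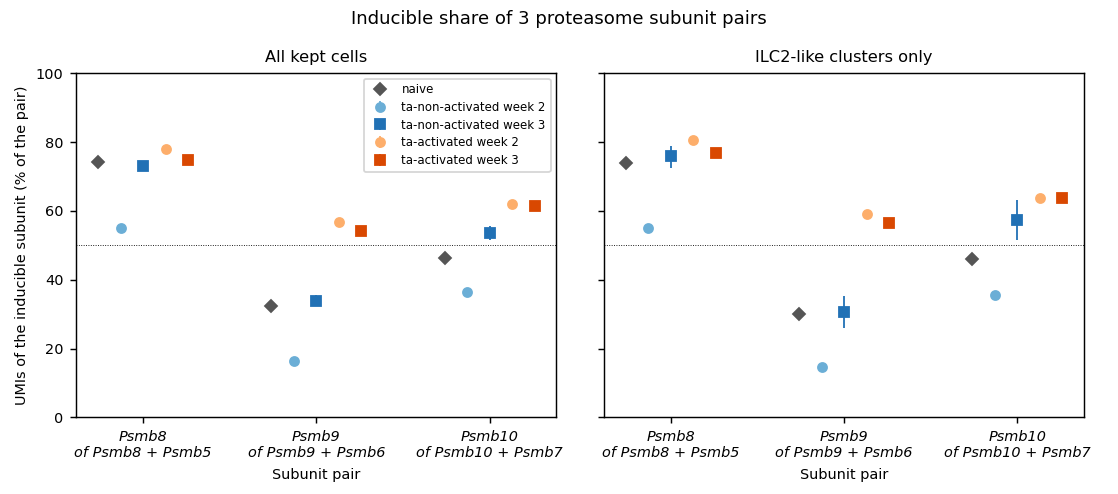
Share of each immunoproteasome subunit in the summed UMIs of the subunit and its standard counterpart, in percent, for the 5 libraries over all kept cells and over ILC2-like clusters, with exact binomial 95% intervals. Over all cells, for *Psmb9* against *Psmb6* the share is 56.6% and 54.2% in the ta-activated libraries and 16.3% to 34.0% in the other 3.

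*Nlrc5*, the class I transactivator, had few UMIs and an uncertain naïve level. Its level was 34.9 CPM in the naïve library (1131 UMIs), 12.7 and 5.0 CPM in ta-non-activated ILC2s (421 and 47 UMIs) and 46.7 and 38.5 CPM in ta-activated ILC2s (2681 and 2383 UMIs). The ta-non-activated libraries were lowest, and the ta-activated values were 3.69 and 7.70 times theirs. Within ILC2-like clusters *Nlrc5* had 29.7 CPM in naïve-ILC2s, 11.5 and 11.4 CPM without activation and 51.3 and 41.1 CPM with it. The week 3 step was thus smaller among ILC2-like cells than over the whole library. Introns make up 84424 of the 92917 bases of *Nlrc5*. Genes with at least as many intronic bases were higher in the naïve library in general, with a median log2 ratio to the week 2 ta-non-activated library of 2.47 over 1091 genes against -0.19 over the other 5501. The naïve matrix also names another Cell Ranger version than the other 4, and a difference of the naïve cells and one of the counting cannot be told apart.

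Across libraries, the 10 genes summed to 5172 CPM in naïve, 5961 and 3949 CPM in ta-non-activated and 12131 and 11791 CPM in ta-activated ILC2s. Over all cells 9 of 10 genes were higher in both ta-activated libraries than in both ta-non-activated libraries, against 29.2% of 6608 genes with at least 20 CPM in a library of either group, and none was lower in both, against 25.7%. Past 2-fold were 4 of 10 in week 2 (*B2m*, *Tap1*, *Psmb9* and *Nlrc5*), where 15.7% of genes were, and 7 of 10 in week 3 (all but *Tap2*, *Psmb8* and *Psmb9*), where 19.8% were. The median log2 ratio of the 10 genes was 0.95 in week 2 and 1.63 in week 3, beside 0.01 and 0.00 over all genes. In ILC2-like clusters 10 of 10 were higher in both, against 28.6% of 6341 genes.

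The naïve library was compared without a test, since it has no replicate. Against the ta-non-activated library of week 2, *Tap1*, *Psmb8* and *Psmb10* were more than 2-fold lower in naïve-ILC2s, 3 of 10 genes where 24.4% of all genes were, and *Nlrc5* alone was over 2-fold higher, where 35.9% were. Against week 3, *Tap2*, *Psmb8*, *Psmb9* and *Psmb10* were more than 2-fold lower (4 of 10, background 21%), and *H2-K1* and *Nlrc5* over 2-fold higher (2 of 10, background 30.2%). For *Psmb8* the naïve value was 0.320 and 0.292 times the ta-non-activated value of weeks 2 and 3. Within ILC2-like clusters the ratio to week 3 was 0.756 for *Psmb8*, 0.726 for *Psmb9*, 0.710 for *Psmb10*, 0.981 for *H2-K1* and 1.31 for *Tap2*, where the direction turned, and of these calls *Nlrc5* alone stayed past 2-fold, at 2.61. The naïve library had more counts of long-intron genes, which also enters these backgrounds, and how introns were counted cannot be told apart from the naïve state. Against the ta-activated libraries, 6 of 10 genes in week 2 (background 19.4%) and 8 of 10 in week 3 (background 18.8%) were more than 2-fold lower in the naïve library, and none was over 2-fold higher, where 29.5% and 26.3% of all genes were. The 2 ta-activated libraries differed by less than 2-fold in all 10 genes, where 2.36% of genes were over 2-fold higher in week 2 and 3.27% lower. Of the 2 ta-non-activated libraries, week 2 had over 2-fold more *H2-K1* (1 of 9 genes with at least 20 CPM, background 12.6%) and over 2-fold less *Tap2* (1 of 9, background 19.1%). Within ILC2-like clusters neither was past 2-fold, at 0.95 and 1.38 times the week 3 value, while *Tap1*, *Psmb8* and *Psmb10* were 3.19, 2.49 and 2.88 times higher in week 2.

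Whether the ta-activated and ta-non-activated groups differed by more than their libraries was tested with edgeR's quasi-likelihood test on summed counts, 2 libraries against 2, with Benjamini-Hochberg adjustment over 12643 genes. No gene passed an adjusted p of 0.05 (0%), with 2120 genes at an unadjusted p under 0.05, and the smallest adjusted p was 0.243. *Nlrc5* had a log2 fold change of 2.10 (SE 0.62, adjusted p = 0.255), *Tap1* of 1.66 (SE 0.45, adjusted p = 0.252), *B2m* of 1.36 (SE 0.38, adjusted p = 0.252) and *H2-K1* of 1.36 (SE 0.55, adjusted p = 0.314). These were followed by *Tapbp* with 1.30 (SE 0.52), *Psmb9* with 1.12 (SE 0.35) and *H2-D1* with 1.08 (SE 0.48). *Psmb8* (0.47, SE 0.33), *Psmb10* (0.43, SE 0.51) and *Tap2* (-0.02, SE 0.46) had changes within or near their errors. At an unadjusted p under 0.05 were *B2m*, *Tap1*, *Psmb9* and *Nlrc5*, 4 of 10 genes where 16.8% of all genes were. DESeq2 called 1033 of 12928 genes (7.99%), and 2 of the 10, *Tap1* (adjusted p = 0.0323) and *Nlrc5* (adjusted p = 0.0371).

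The call rested on the ta-non-activated libraries. Without the week 2 library, edgeR called 1646 genes (12.1%) and 6 of the 10: *H2-K1*, *H2-D1*, *B2m*, *Tap1*, *Tapbp* and *Nlrc5*, with adjusted p between 0.0310 and 0.0397. Without the week 3 library, which holds the T-cell-like cells, it called 513 genes (3.85%) and none of the 10, whose lowest adjusted p was 0.0611 for *Nlrc5*. In both of these fits the lone library is assumed to vary like the ta-activated pair. P-values here measure the spread between these libraries, each of them a pool of mice.

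The other genes of the pathway were read from lists of known members. All 7 further heavy chains had a positive edgeR log2 fold change (median 1.80, against -0.02 over all genes), and the 6 of them with at least 20 CPM did not overlap between the groups, where 29.2% of all genes did not and were higher. *H2-Q7*, a Qa-2 gene, had 373 CPM in naïve, 257 and 152 CPM in ta-non-activated and 855 and 1072 CPM in ta-activated ILC2s. *H2-T23*, which encodes the NK receptor ligand Qa-1, had 109.7 CPM, then 135 and 41.6 CPM, then 404 and 274 CPM. *H2-T22* had 54.3 CPM, then 105 and 54.6 CPM, then 505 and 467 CPM. Each of these 3 was highest in both ta-activated libraries.

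The subunits of the PA28 activator, which opens the proteasome, did not follow. *Psme1* had 235 CPM in naïve, 581 and 453 CPM in ta-non-activated and 630.4 and 548 CPM in ta-activated ILC2s, and *Psme2* had 109.9 CPM, then 856 and 218 CPM, then 585 and 472 CPM, so that the groups overlapped for both. Of 4 activator and assembly genes, 1 was higher and 3 were lower by the fit (median -0.41). The 3 standard catalytic subunits were all lower (median -0.83), with *Psmb6* alone below without overlap, where 25.7% of all genes were. Of the 5 endoplasmic reticulum genes, the chaperones *Calr*, *Canx* and *Pdia3* overlapped. *Tapbpl*, a tapasin relative, and *Erap1*, the peptide-trimming protease, were higher in both ta-activated libraries, 2 of 5 where 29.2% of all genes were. The difference in *Erap1* was small, at 36.5 and 29.4 CPM without activation and 38.4 and 44.8 CPM with it, beside 70.4 CPM in the naïve library. Of the 4 class I-like molecules 3 could be tested, and 2 were higher and 1 was lower. Among the regulators, *Irf1*, *Irf2* and *Rfxap* were higher without overlap, as 29.2% of all genes were, and the ratios of *Rfxap* were only 1.13 and 1.19. *Irf1*, which binds the response element, had 60.6 CPM, then 93.1 and 68.3 CPM, then 243 and 132 CPM. No gene of any list passed the edgeR threshold.

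Per cell, levels were read after each cell had been thinned at random to 2000 UMIs, with 14 to 242 shallower cells left out per library. A *Tap1* UMI was found in 4.73% (95% interval 4.22 to 5.29) of naïve cells, in 13.8% (12.2 to 15.4) and 8.29% (6.95 to 9.81) of ta-non-activated and in 38.2% (36.4 to 40.0) and 33.8% (32.3 to 35.4) of ta-activated cells. Without thinning these shares were 11.3%, 60.6% and 20.6%, and 89.4% and 84.2%. *Psmb8* was found in 33.5% of naïve, 71.6% and 65.1% of ta-non-activated and 89.2% and 83.5% of ta-activated cells after thinning, with no overlap between the groups. *H2-K1* was found in 92.7% to 98.6% of cells in 4 libraries and in 71.2% of the week 3 ta-non-activated cells. In the ILC2-like clusters of that library *H2-K1* was found in 92.9% of thinned cells, *Tap1* in 3.64% (2.27 to 5.51), beside 3.85% in naïve-ILC2s, and *Psmb8* in 40.4%, beside 33.0%. *Nlrc5* was found in 5.99% of naïve, 2.76% and 1.27% of ta-non-activated and 9.89% and 8.02% of ta-activated cells. A cell had UMIs of 4 of the 10 genes at the median in the naïve and the week 3 ta-non-activated library, of 5 in week 2 without activation and of 6 in both ta-activated libraries. Their summed UMIs per thinned cell had medians of 10, of 12 and 9, and of 27 and 25. Nearly all nucleated cells express class I, so no cell type here could show the share that free RNA gives.

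The relation to the interferon genes was read within each library from 16 type I interferon-induced genes, among them *Isg15*, *Ifit1*, *Ifit3* and *Rsad2*, none of them a class I gene. Summed, they had 119 CPM in naïve, 136 and 355 CPM in ta-non-activated and 2551 and 4909 CPM in ta-activated ILC2s. All 16 were higher in both ta-activated libraries, with a median log2 fold change of 3.72, where 29.2% of all genes were higher without overlap and the median over all genes was -0.02. In thinned cells, those with UMIs of 2 or more of the 16 genes numbered 150 of 6147 in the naïve library and 94 and 160 without activation, but 2242 and 3502 with it. Cells with none numbered 5015, 1410 and 964, and 205 and 63. Cells of a library share its preparation and depth, so what follows describes cells and has no test. No class I gene with enough counts was over 1.5-fold lower in cells with interferon-induced genes in any library, where 5.94%, 15.2% and 13.9%, and 14.3% and 20.7% of all genes were. Intervals cover counting error only.

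In the ta-activated libraries the cells with interferon-induced genes had more of nearly every class I gene. Of the 10 genes, 8 in week 2 and 9 in week 3 were over 1.5-fold higher in these cells than in cells with none, against 14.9% and 19.5% of all genes. The exceptions were *H2-K1* and *B2m* in week 2 and *B2m* in week 3. *Tap1* had a log2 ratio of 1.39 (95% interval 0.95 to 1.82) in week 2 and 0.97 (0.22 to 1.73) in week 3, and *Psmb8* of 0.97 (0.81 to 1.13) and 1.23 (0.84 to 1.61). *H2-K1* had 0.45 (0.37 to 0.53) and 0.59 (0.43 to 0.74), and *B2m* only 0.13 (0.05 to 0.22) and 0.37 (0.20 to 0.53). The standard subunit *Psmb5* was flat, at 0.03 and 0.04. *Nlrc5* had 0.84 (0.03 to 1.64) and 0.66 (-0.98 to 2.30), the second from 3 UMIs in the low cells. Cells with interferon-induced genes had been sequenced less deeply, with medians of 12303 against 30286 UMIs in week 2 and 12297 against 23088 in week 3.

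Levels were also read against the number of interferon-induced genes in a cell. In ta-activated ILC2s of week 2, *Tap1* had 107 CPM in cells with none, 140, 223 and 262 CPM in cells with 1, 2 and 3 to 4, and 324 CPM in cells with 5 or more. *Psmb8* had 800 CPM, then 999, 1175 and 1480.2 CPM, and 1789 CPM in the last class. *H2-K1* had 3154 CPM in cells with none and 4838 CPM with 5 or more, while *B2m* had 3115 and 3542 CPM. In week 3 *Tap1* went from 111 CPM in 63 cells to 253 CPM in 2221 cells and *Psmb8* from 437 to 1119.5 CPM. In both libraries the transporter and immunoproteasome genes differed more between the end classes than the heavy chains and *B2m* did.

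**Figure D3:**
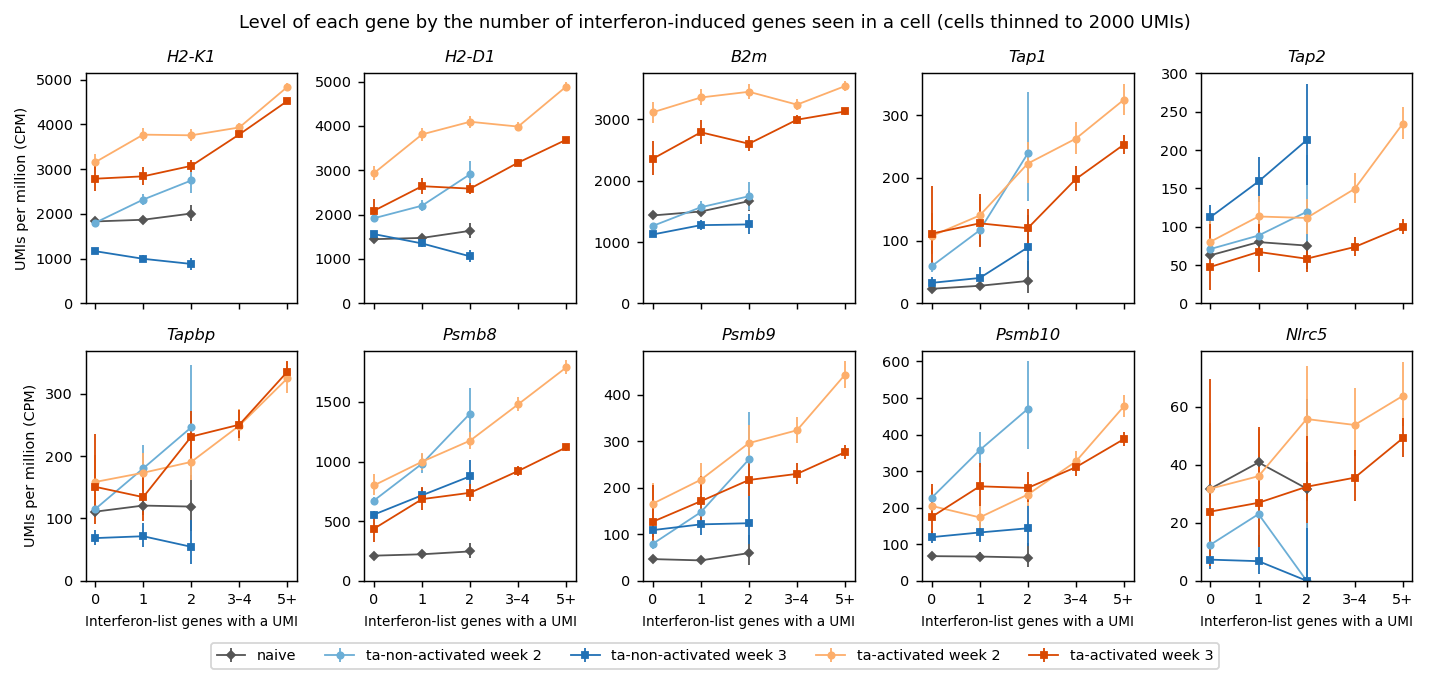
Level of class I genes, in CPM of cells thinned to 2000 UMIs, by the number of the 16 type I interferon-induced genes with a UMI in the cell, for each library, with exact Poisson 95% intervals. In the week 2 ta-activated library *Tap1* goes from 107 CPM in cells with none to 324 CPM in cells with 5 or more, and *B2m* from 3115 to 3542 CPM.

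In ta-non-activated ILC2s of week 2 few cells had these genes, and the ratios in them were larger than with activation in the same week for the 9 genes with enough counts, a difference that was not tested. All 9 were over 1.5-fold higher, where 16.2% of all genes were, and *Nlrc5* had 1 UMI in the 94 cells. *Tap1* had a log2 ratio of 2.29 (1.84 to 2.73), *Psmb9* of 1.51 (1.03 to 1.98), *Tapbp* of 1.44 (1.03 to 1.84), *H2-K1* of 0.82 (0.70 to 0.95) and *B2m* of 0.67 (0.52 to 0.83). *Irf1* had 2.44. In ILC2-like clusters alone, 76 cells against 1193, *Tap1* had 2.36 (1.88 to 2.83) and *H2-K1* 0.89 (0.75 to 1.02).

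Among ta-non-activated ILC2s of week 3, the heavy chains went the other way. *H2-K1* had a log2 ratio of -0.41 (-0.59 to -0.23) and *H2-D1* of -0.53 (-0.69 to -0.37), while *Tap1* had 1.91 (1.33 to 2.48), *Tap2* 0.84 (0.44 to 1.24) and *Psmb8* 0.75 (0.57 to 0.94), and 3 of 9 genes with enough counts were over 1.5-fold higher (background 18.9%). The direction of the heavy chains changed with the setting: with cells thinned to 4000 UMIs *H2-K1* had 0.21 and *H2-D1* 0.31, and with all UMIs 0.0380 and -0.04. Thinning to 4000 UMIs also left out shallower cells, and the classes compared were 243 and 351 cells in place of 160 and 964. The ILC2-like clusters of this library had median counts of 2569 and 3168 UMIs, and the T-cell-like cluster 5746. The mix of cells could thus change together with the depth, and their parts were not tested. *Isg15* is among the leading genes of the T-cell-like cluster, and 132 of the 160 cells with 2 or more interferon-induced genes lay in it. Within that cluster, a comparison chosen after the data were seen, *H2-K1* had 0.55 (0.29 to 0.81) and *H2-D1* 0.59 (0.36 to 0.82), *Tap1* 1.30 (0.55 to 2.05) and *Psmb8* 0.14 (-0.07 to 0.35). Among ILC2-like cells of this library too few had 2 genes, and with 1 gene or more, 129 cells against 448, *H2-K1* had -0.01 (-0.16 to 0.14), *H2-D1* -0.05 (-0.17 to 0.08) and *B2m* -0.02 (-0.20 to 0.16). *Tap2* had -1.72 (-3.19 to -0.25) there.

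In naïve-ILC2s the relation was weak. *Tap1* (1.05, 0.28 to 1.83) and *Psmb9* (0.87, 0.29 to 1.45) alone were over 1.5-fold higher, 2 of 10 genes where 10.8% of all genes were, and *H2-K1* had 0.25 (0.14 to 0.37). In ILC2-like clusters, 92 cells against 4277, *H2-K1* had -0.01 (-0.16 to 0.15), *B2m* 0.07 (-0.11 to 0.24) and *Tap1* -0.05 (-1.70 to 1.60), the last from 3 UMIs. *Tap2* alone was past 1.5-fold there, at 0.91 (0.28 to 1.54), and the share of all genes past it in these clusters is not given here. Over cells, the Spearman correlation of the summed UMIs of the 10 genes with the number of interferon-induced genes was 0.04 in 6147 naïve cells, 0.27 and 0.03 in 1809 and 1495 ta-non-activated cells and 0.35 and 0.34 in 2822 and 3714 ta-activated cells.

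**Figure D4:**
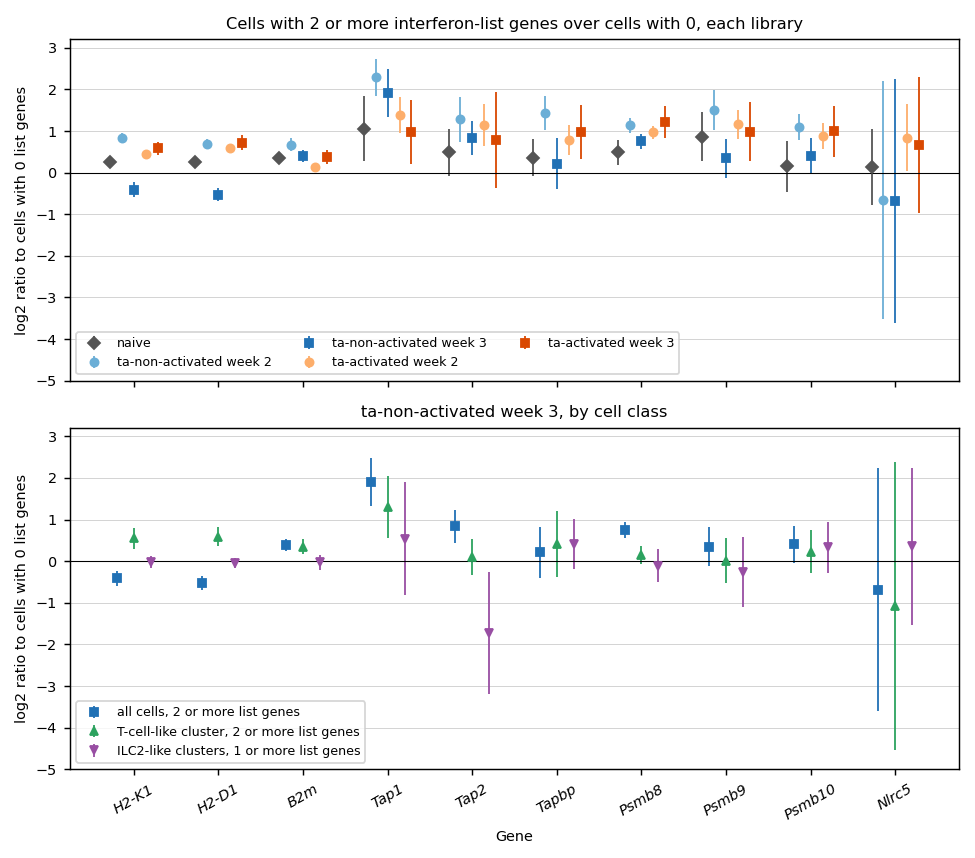
Log2 ratio of the level of each gene in cells with 2 or more of the 16 interferon-induced genes to that in cells with none, for the 5 libraries (upper panel) and for cell classes of the week 3 ta-non-activated library (lower panel), with 95% intervals for counting error. In the upper panel *Tap1* is above 0 in all 5 libraries (0.97 to 2.29), and *H2-K1* and *H2-D1* are below 0 in the week 3 ta-non-activated library only.

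The genes of interferon-γ-induced GTPases (GBP and IRG, 12 genes) gave another reading. Summed, they had 107 CPM in naïve, 263 and 156 CPM in ta-non-activated and 1427 and 839 CPM in ta-activated ILC2s. With these in place of the type I genes, 7 of 10 class I genes with enough counts were over 1.5-fold higher in naïve-ILC2s (background 14.4%), 9 of 9 and 2 of 9 in ta-non-activated (10.7% and 22%) and 6 of 10 and 2 of 10 in ta-activated ILC2s (9.9% and 3.88%). The difference between the lists was not tested.

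Class I levels also differed between clusters of a library. In the ta-activated libraries the proliferating cluster, led by *Mki67* and *Top2a*, had the lower heavy chain levels, with *H2-K1* at 2242 CPM in week 2 against 3523 and 4269 CPM in the 2 ILC2-like clusters, and at 2742 against 3827 and 4387 CPM in week 3. *Tap1* hardly differed there, at 196 CPM in the proliferating cluster of week 2 against 209 and 203 CPM. In 63 cells of week 2 in cluster 7, unnamed, whose leading genes include the stress genes *Ddit3* and *Trib3*, *H2-K1* reached 6697 CPM and *H2-D1* 7053 CPM, beside 2931 CPM of *B2m*. In week 3 the 92 ta-activated cells of the same cluster had 2352 CPM of *H2-K1* and 1932 CPM of *H2-D1*, the lowest of that library's clusters with at least 50 cells. In naïve-ILC2s the NK- or ILC1-like cluster had the most *H2-K1*, 2516 CPM. The proliferating naïve cells had the most *Psmb8* and *Psmb9*, 407 and 155 CPM, against 225.5 and 48.1 CPM in the larger ILC2-like cluster. A low-depth naïve cluster led by *Sftpc* (cluster 6, 291 cells, a median of 2074 UMIs) had 19.7, 6.06 and 4.54 CPM of *Psmb8*, *Psmb9* and *Psmb10*, but 92.4 CPM of *Nlrc5*. Clusters were cut from other genes of the same cells, so these differences are a description. The 10 genes, the further heavy chains and both interferon lists were left out of the genes that shaped the clusters.

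The T-cell-like cluster of ta-non-activated ILC2s in week 3 had 559.8 CPM of *H2-K1* and 693 CPM of *H2-D1*, where the ILC2-like clusters had 1657 and 1948 CPM and 2545 and 2342 CPM. Its *B2m*, 1166 CPM, was near theirs of 1333 and 1222 CPM, and its *Psmb8*, 944 CPM, was over theirs of 271 and 271 CPM. The 186 proliferating cells of this library had less *H2-K1* still, 232 CPM, and 798 CPM of *Psmb8*. Low heavy chains thus stood beside high *Psmb8* and *Tap2* in the cluster with T cell markers.

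**Figure D5:**
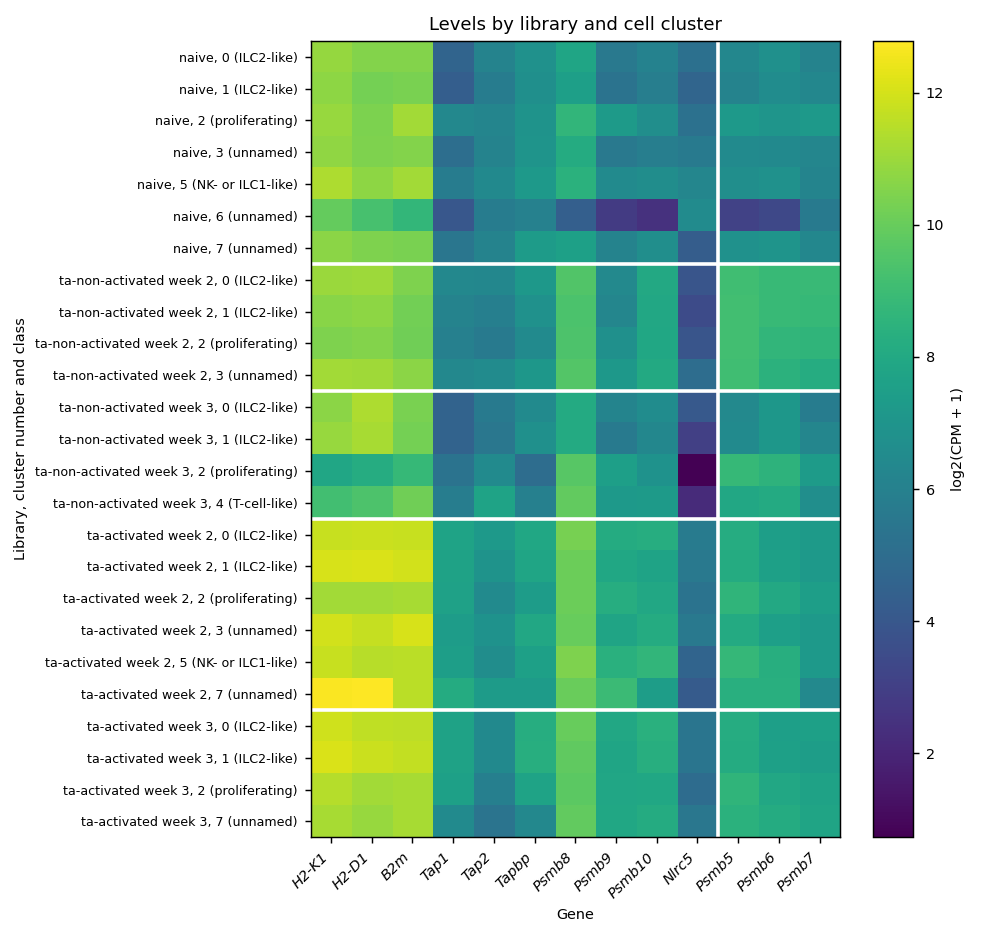
Level of the 10 genes and of the standard subunits *Psmb5*, *Psmb6* and *Psmb7* in the clusters with at least 50 cells of each library, as colour on the scale log2(CPM + 1). For ta-non-activated ILC2s of week 3, *H2-K1* lies at 559.8 CPM in the T-cell-like and at 1657 and 1948 CPM in the ILC2-like clusters.

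Over 25 pools, each 1 cluster of 1 library with at least 50 cells, the genes whose log level was most like the mean of the heavy chains and *B2m*, among 5921 genes, were *H2-Q7* (Pearson r = 0.93), the lysosomal protease *Ctss* (0.92), *AW112010* (0.92), *Fxyd5* (0.91) and *Ostf1* (0.90). Among those most like the mean of the transporter, loading and immunoproteasome genes were the nucleic acid sensor *Zbp1* (0.93), the GTPase *Igtp* (0.93), *Mvb12a* (0.92) and *Lgals3bp* (0.92). Of the 7 genes that make up the second mean, *Tap1* was closest to it (0.96), *Tap2* was far from it (0.60) and *Nlrc5* farther (0.25). Pools of a library share its preparation, so these values are a description. Over single thinned cells *H2-K1* and *H2-D1* had Spearman correlations of 0.32 in naïve, 0.36 and 0.57 in ta-non-activated and 0.59 and 0.54 in ta-activated ILC2s. *H2-K1* and *Psmb8* had 0.11, then 0.23 and -0.26, then 0.19 and 0.12, and the negative value was that of the week 3 ta-non-activated library.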

How the data were processed

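RNA of single sorted lung ILC2s was measured with the 10x Genomics 3′ kit in 5 libraries. The files the authors deposited hold UMI counts of every gene in every barcode, not normalized, from Cell Ranger. The submitters' processing notes name Cell Ranger 3.0.2, Seurat 3 and the build GRCm38, while the header of the naïve matrix names version 6.0.0. The annotation and the strand setting used for counting are not given in the sources used here, and the ends of *Tap1* and *Psmb9* overlap on opposite strands.

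The 10 genes and all gene lists were chosen with earlier results of these data known. Barcodes with 200 or more genes and under 5% mitochondrial counts were kept, and genes outside the 27726 shared by the 5 matrices were dropped. Naïve-ILC2s had a total count of 33522126 UMIs, against 33324823 and 9910201 in ta-non-activated and 68919437 and 71126524 in ta-activated ILC2s, and the kept cells had median counts of 4517, of 16090 and 4396, and of 13636 and 12296.5 UMIs. Scrublet in scanpy 1.11.5 called 1, 1, 17, 0 and 0 cells, too few to have worked in 4 libraries, and none was removed. Clusters came from Seurat 5.3.0 in R 4.3.3 at a resolution of 0.2 over 30 dimensions and were named from marker lists, the names being written after the clusters were seen.

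Levels are a gene's share of the UMIs of the kept cells of a library, in CPM, with 95% intervals from the exact Poisson distribution. For shares of cells, each thinned to 2000 UMIs, intervals are Clopper-Pearson. Intervals of log2 ratios between cell classes come from the Poisson error of both counts, and a gene entered the background with at least 20 CPM in either side compared. All these intervals cover counting error only. Summed counts were compared with edgeR 4.0.16 (filterByExpr, TMM, quasi-likelihood F test, Benjamini-Hochberg adjustment, threshold 0.05), which was tested on simulated data. There 200 of 12643 genes were changed 4-fold. With a spread between libraries (dispersion) of 0.05 it called all 200, with 11 false calls. With a dispersion of 0.2 it called 20 of the 200, so most changed genes were missed at the larger spread. The genes named were the 10 in every comparison, genes of the fixed lists where a result turned on them, and the 5 genes most like each of 2 groups of members over the pools.

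Alternatives were DESeq2 1.42.0, the week as a replicate block, no filter beyond 1 count per gene, a fit of all 5 libraries, no filter on barcodes, a limit of 10% mitochondrial counts, ILC2-like clusters only, each library left out, TMM-scaled CPM, other thinning depths, the GBP and IRG list, and cells without the 6% of highest Scrublet scores. The comparisons of ILC2-like cells with 1 or more list genes and of the T-cell-like cluster alone were chosen after the data were seen. Python 3.11.15, scipy 1.17.1 and matplotlib 3.10.9 were used. Values of 1 gene of the fixed lists are not reported here.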

Additional observations from a re-analysis of the deposited data

Results flagged for a closer look

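Some differences turned direction between libraries that share a comparison, and the difference between them was not tested, since each library is 1 sample. The log2 ratio of ta-activated to ta-non-activated ILC2s was 0.93 in week 2 and -0.75 in week 3 for *Tap2*, -0.75 and 0.20 for *Psmb5*, and -1.43 and 0.78 for *Psmb7*. In the week 3 ta-non-activated library, 661 of 1601 cells were T-cell-like, and the directions of *Psmb5* and *Psmb7* were also opposite within ILC2-like clusters. There *Psmb5* had a mean of 1.06 UMIs per thinned cell without and 0.618 with activation in week 2, and 0.177 and 0.564 in week 3. *Psmb7* had 0.938 and 0.276 in week 2, and 0.128 and 0.348 in week 3. For *Tap2*, both ta-activated libraries were higher once ILC2-like clusters alone were compared.

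The log2 ratio of cells with 2 or more interferon-induced genes to cells with none was 0.82 in week 2 and -0.41 in week 3 of the ta-non-activated libraries for *H2-K1*, and 0.70 and -0.53 for *H2-D1*. For *Nlrc5* it was 0.84 and 0.66 in the ta-activated and -0.66 and -0.68 in the ta-non-activated libraries, where the upper class held 1 UMI in each. The negative *Nlrc5* values were not kept with more counts. In week 2 the lowest ratio of the 10 genes was 0.58 with 4000 UMIs and 0.60 with all UMIs. In week 3 it was 0.21 and -0.04. For *Psmb7* the log2 ratio was -0.43 and -0.28 in the ta-activated and 0.10 and 0.26 in the ta-non-activated libraries. With at most 2 libraries in a group, no library could be marked as far from the others of its group.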

How the results depend on the processing

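The count of genes called between ta-activated and ta-non-activated ILC2s was 0 with edgeR and 1033 with DESeq2, and from 0 to 1646 with each library left out. Of the 10 genes, 2 were called by DESeq2 and from 0 to 6 with a library left out. The deviations of same-week libraries from their group means had a correlation of -0.06. With 2 libraries in a group the weeks mirror each other, so this value cannot show whether the weeks pair samples. With a replicate block 0 genes were called, 1505 had an unadjusted p under 0.05, and the 10 genes had edgeR log2 fold changes of -0.01 to 2.30. *Tap2* turned from -0.02 to 0.055 with all genes of at least 1 count, 0.062 with all 5 libraries, 0.84 in ILC2-like clusters, and from -0.35 to 0.42 with a library left out (0.42 without week 3 ta-non-activated, 0.29 without week 3 ta-activated ILC2s), and *Psmb10* spanned -0.0679 (without week 3 ta-non-activated ILC2s) to 1.20. Shares of cells were higher in both ta-activated libraries for 9 of 10 genes after thinning and 5 without it.

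The number of genes over 1.5-fold higher in cells with interferon-induced genes was 2 in the naïve library (background 10.8%). It was 1 with thinning to 4000 UMIs, 7 to 1000 UMIs, 7 with the GBP and IRG list (background 14.4%), 1 in ILC2-like clusters and 0 there with 1 or more list genes. For ta-non-activated ILC2s of week 3 it was 3 (background 18.9%), and 5, 8 and 0 with 4000 UMIs, with 1000 UMIs and in ILC2-like clusters with 1 or more list genes. In week 3 ta-activated ILC2s it was 9 (background 19.5%), and 2 with the GBP and IRG list (background 3.88%). At the other settings the share over all genes is not given here, so these counts do not show a stronger or weaker relation. With 1000 UMIs the upper class held only 54 naïve and 71 week 3 ta-non-activated cells. Some ratios whose main interval excluded 0 turned sign. In naïve ILC2-like clusters they did so for *H2-K1* (-0.0067) and *Tap1* (-0.0504), and with 1 or more list genes for *H2-K1* (-0.00097), *H2-D1* (-0.0023) and *Psmb9* (-0.20). In the week 3 ta-non-activated library they turned with 4000 UMIs for *H2-K1* (0.21) and *H2-D1* (0.31), with all UMIs for *H2-K1* (0.0380), in the T-cell-like cluster for *H2-K1* (0.55) and *H2-D1* (0.59), and in ILC2-like clusters with 1 or more list genes for *B2m* (-0.0230), *Tap2* (-1.72) and *Psmb8* (-0.11). The cause was not tested. Of the other single values, 496 kept direction and call in the edgeR fit or stayed inside the main interval for counting error. Another 242 moved by more than counting error and 8 became called. A ratio whose main interval spanned 0 could change sign inside it, as *Nlrc5* did in week 2 ta-non-activated ILC2s with 4000 UMIs and with all UMIs. Under 50 cells in a class left no value for 4000 UMIs or ILC2-like clusters in week 3 ta-activated, for 1000 UMIs in week 2 ta-non-activated and for 2 or more list genes in ILC2-like clusters of week 3 ta-non-activated ILC2s. Depth limits *Nlrc5* most, with 47 UMIs in the week 3 ta-non-activated library.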
